A study of Mus musculus with 21 samples.

Results

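The Polycomb and H3K27 demethylase genes followed here were Ezh1, Ezh2, Eed, Suz12, Jarid2, Cbx2, Cbx7, Cbx8 and Kdm6b, which are 9 of the 24594 genes in each deposited count table. They were picked by gene symbol, with earlier results of these data known. Their RNA was measured in all 7 groups of 3 libraries each. In the stage series, red fluorescent crest cells were sorted from Wnt1::Cre;ROSARFP mouse embryos with no deletion, namely E10.5 cells of pharyngeal arch 2 (PA2) and E12.5 and E14.5 cells of the pinna, the external ear that PA2 gives rise to. Wnt1 is active in the dorsal neural tube, where crest arises, and Cre made there switches on the red reporter for good. In the genotype series, PA2 and its neighbour, arch 3 (PA3), were taken at E10.5 from WT embryos and from HIRE1del/del embryos (written HIRE1del), which lack a distant regulatory region of Hoxa2 on both alleles after CRISPR-Cas9 editing and came from crosses of heterozygous mice. Mice of both series were kept on a mixed C57Bl/6J;CD1 background. The methods state pooling of embryos of different sexes, which the Y-linked reads of 1 PA2 WT library do not show. The sources used here describe no sorting for these arches. Papain was used to dissociate the E14.5 pinna and trypsin the younger tissues, so stage and enzyme cannot be told apart. Library totals were 25814151 to 49058941 reads in the stage series and 25804446 to 32210131 in the genotype series.

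Polycomb repressive complex 2 (PRC2) methylates lysine 27 of histone H3. Its catalytic subunit is Ezh2 or Ezh1, Eed and Suz12 are needed for its activity, and Jarid2 is an accessory subunit that helps bring it to chromatin. Polycomb repressive complex 1 (PRC1) ubiquitinates histone H2A, and its canonical forms carry 1 CBX protein, such as Cbx2, Cbx7 or Cbx8, that reads the methyl mark. Kdm6b (Jmjd3) and Kdm6a (Utx) remove methyl groups from the same lysine. In neural crest the Polycomb complexes are known for holding positional genes, the Hox genes among them, in a repressed or poised state.

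Promoter windows, running from 250 bases before to 50 bases after the RefSeq transcription start (GRCm38.p6), were found for 7 of the 9 genes, with 2 windows for Jarid2. Cbx2 and Kdm6b were not listed. The windows of Ezh2, Suz12 and Ezh1 are shown because the RNAs of these PRC2 genes moved in different ways across the stages. Capitals mark a match to an E2F-type motif, searched on both strands as TTTCCCGC, TTTGGCGC, TTTCGCGC or TTTGCCGC; E2F factors are regulators of cell cycle genes. The sequences read 5′ to 3′ on the gene's own strand, at chr6:47594981-47595280 (minus strand) for Ezh2, chr11:79992856-79993155 (plus strand) for Suz12 and chr11:101226414-101226713 (minus strand) for Ezh1.
Ezh2: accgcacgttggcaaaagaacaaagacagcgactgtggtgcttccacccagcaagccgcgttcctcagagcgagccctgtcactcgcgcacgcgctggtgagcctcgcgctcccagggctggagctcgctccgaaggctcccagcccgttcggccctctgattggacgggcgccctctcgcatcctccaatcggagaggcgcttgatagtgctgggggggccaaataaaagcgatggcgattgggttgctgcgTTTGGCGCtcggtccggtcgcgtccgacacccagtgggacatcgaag
Suz12: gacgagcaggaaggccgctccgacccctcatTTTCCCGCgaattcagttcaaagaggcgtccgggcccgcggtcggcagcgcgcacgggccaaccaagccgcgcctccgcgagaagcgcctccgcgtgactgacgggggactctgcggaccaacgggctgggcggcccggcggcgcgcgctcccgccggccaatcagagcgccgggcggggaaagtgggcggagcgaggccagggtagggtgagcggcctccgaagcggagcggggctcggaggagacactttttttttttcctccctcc
Ezh1: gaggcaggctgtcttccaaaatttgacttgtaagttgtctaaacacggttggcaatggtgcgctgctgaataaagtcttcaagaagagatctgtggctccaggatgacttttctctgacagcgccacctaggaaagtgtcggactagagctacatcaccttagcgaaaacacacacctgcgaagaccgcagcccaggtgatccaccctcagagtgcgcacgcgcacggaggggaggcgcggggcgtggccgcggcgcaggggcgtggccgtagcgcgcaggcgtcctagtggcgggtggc
Among the windows of these 7 genes, only those of Ezh2 and Suz12 held a match. The Ezh2 match was TTTGGCGC, a form found in 0.514% of 32851 RefSeq mouse promoter windows of the same length, and the Suz12 match was TTTCCCGC, found in 1.07%. Any of the 4 forms was found in 2.26% of windows. All windows of the 7 genes held 17 to 41 CpG dinucleotides, against a median of 7 over all windows. The shares of windows with a match were not matched for CpG content, and each of the 4 forms contains a CpG. The window of Eed, whose RNA also fell across the stages, held no match. A link between the motif and the RNA changes was not tested.

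In the sorted crest, Ezh1 and Ezh2 moved in opposite directions. Ezh2 was at 248, 231 and 239 CPM (counts scaled to the TMM-adjusted library size) in the 3 E10.5 libraries, 138, 136 and 132 CPM at E12.5, and 80.2, 93 and 81.4 CPM at E14.5. The stages did not overlap, and the level fell at each step. Ezh1, the form more common in cells that have left the cycle, was at 22.5, 22.6 and 23.6 CPM at E10.5, 42, 39 and 37.4 CPM at E12.5, and 81.6, 77.8 and 78.1 CPM at E14.5. Its stages did not overlap either, and the order was the reverse. The Ezh2 mean went from 240 ± 8.45 to 135 ± 2.7 and 84.9 ± 7.07 CPM (SD, n = 3), while that of Ezh1 went from 22.9 ± 0.59 to 39.5 ± 2.36 and 79.2 ± 2.08 CPM (SD, n = 3).

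Ezh2 fell by 0.82 on the log2 scale between E10.5 and E12.5 (SE 0.07, adjusted p = 7.81e-07, edgeR quasi-likelihood test) and by a further 0.67 to E14.5 (SE 0.07, adjusted p = 5.01e-06), which was 2.82-fold in all. Ezh1 rose by a log2 fold change of 0.79 (SE 0.06, adjusted p = 9.60e-07) and then by 1.00 (SE 0.06, adjusted p = 1.40e-07), 3.46-fold in all. Per kb of exon, the libraries held 11.1 to 12.1 times as much Ezh2 as Ezh1 RNA at E10.5, 3.62 to 3.91 times at E12.5 and 1.1 to 1.33 times at E14.5. The ratio was 9.6-fold lower at E14.5 than at E10.5, and no library of one stage reached another stage. An exact two-sided permutation test of 3 against 3 libraries gave p = 0.1 at each step, the smallest it can give (0.154 after Benjamini-Hochberg adjustment over 20 ratio tests).

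Eed and Suz12 also fell, by smaller log2 amounts. Eed, which binds the methyl mark and stimulates the enzyme, was at 82.3, 69.9 and 72 CPM at E10.5, 44.9, 53.4 and 50.5 CPM at E12.5, and 35, 39.4 and 36.7 CPM at E14.5. Its stages did not overlap, and it fell by 0.59 (SE 0.09, adjusted p = 8.66e-05) and then by 0.42 (SE 0.09, adjusted p = 0.0012) on the log2 scale. Suz12, the scaffold of the complex, was at 125, 110 and 111 CPM at E10.5, 80.3, 95.3 and 85 CPM at E12.5, and 79.7, 101 and 86.4 CPM at E14.5. Both pinna stages lay below every E10.5 library, but overlapped each other. Suz12 fell by 0.40 in the first step (SE 0.10, adjusted p = 0.0028). Its second step was 0.03 (95% interval -0.18 to 0.24, adjusted p = 0.77). Per kb of exon, Ezh2 was the highest of these 4 subunits at E10.5 with 35.9 CPM per kb, followed by Suz12 with 23.3, Eed with 19.5 and Ezh1 with 3.08. At E14.5 Suz12 was highest with 18 CPM per kb, and Ezh2, Ezh1 and Eed lay at 12.7, 10.6 and 9.68.

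**Figure D1:**
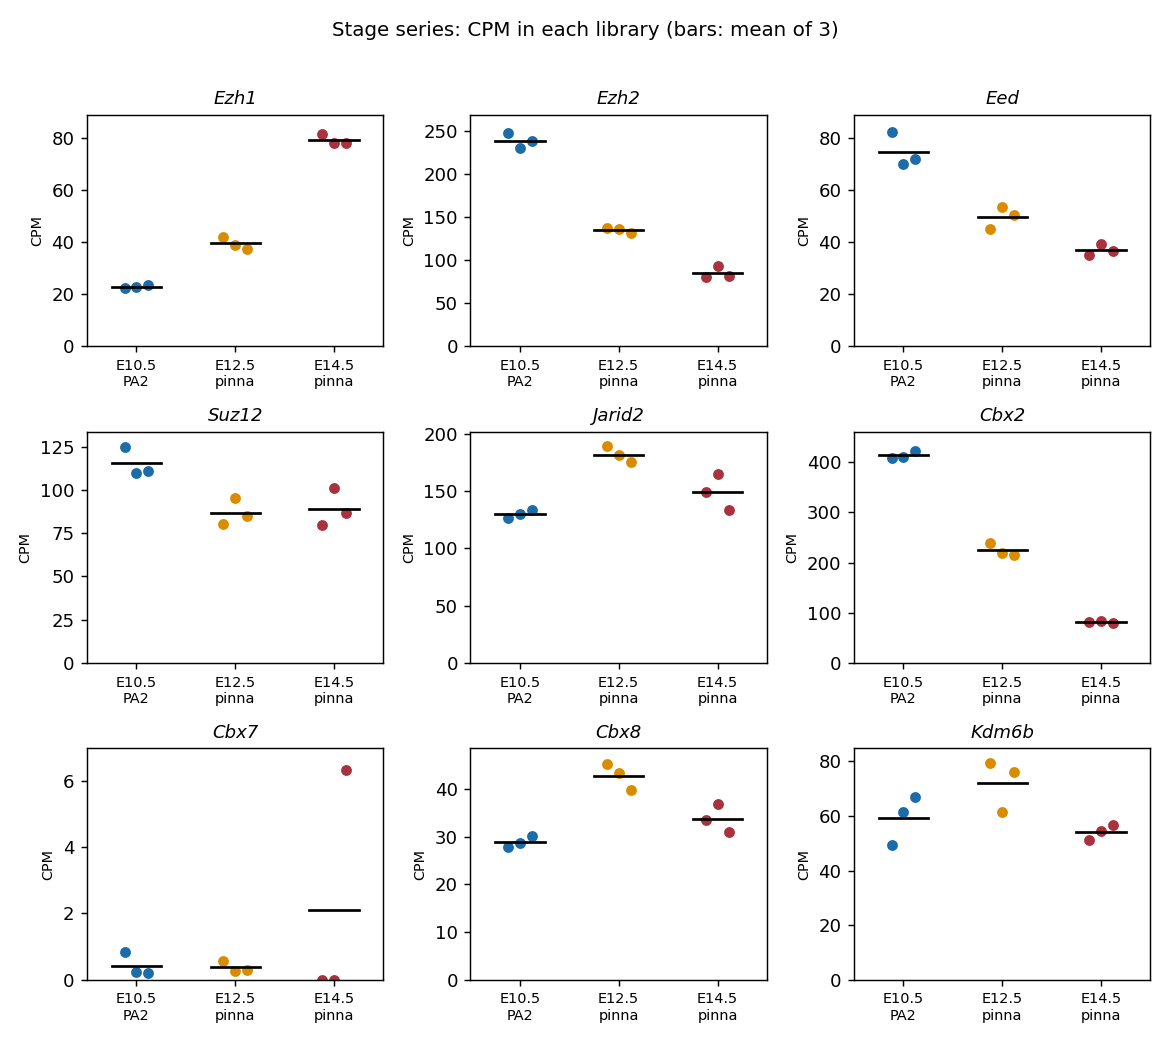
CPM (y axis) of each gene in every stage library; points are libraries, coloured by stage, and black bars are means of 3. Ezh2 and Cbx2 step down, Ezh1 steps up, Jarid2 and Cbx8 are highest at E12.5, and Cbx7 is near 0 in all but 1 library.

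Jarid2, the accessory subunit, was highest in the E12.5 pinna. It was at 126, 130 and 133 CPM at E10.5, 189, 181 and 175 CPM at E12.5, and 149, 165 and 133 CPM at E14.5. The E12.5 libraries lay above all others, and the lowest E14.5 library was level with the highest E10.5 library at this rounding. Jarid2 rose by 0.49 (SE 0.08, adjusted p = 1.49e-04) and then fell by 0.28 (SE 0.08, adjusted p = 0.0061). The net change from E10.5 to E14.5 was 0.20 (adjusted p = 0.027). It was not called when libraries were scaled by total counts alone (adjusted p = 0.139), with no filter (0.0696) or with the 6 libraries fitted alone (0.0581). Nor was it called without any one of E10.5 replicates 1 and 2 and E14.5 replicates 1 and 2 (adjusted p = 0.0789, 0.0647, 0.0515 and 0.103).

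Among the CBX genes, Cbx2 had the highest CPM per kb of exon of the 9 genes at E10.5 and fell the most. Its values were 409, 411 and 422 CPM at E10.5, 239, 220 and 216 CPM at E12.5, and 82.4, 82.8 and 79.7 CPM at E14.5. The stages were far apart relative to their spread, with means of 414 ± 7.02, 225 ± 12.2 and 81.6 ± 1.68 CPM (SD, n = 3). Cbx2 fell by 0.88 (SE 0.06, adjusted p = 1.34e-07) and then by 1.46 (SE 0.06, adjusted p = 5.95e-09), 5.08-fold in all. On the length scale it went from 97.3 to 52.9 and 19.2 CPM per kb.

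Cbx8, a CBX protein that lies next to Cbx2 on chromosome 11, did not follow it. It was at 27.9, 28.7 and 30.1 CPM at E10.5, 45.3, 43.3 and 39.7 CPM at E12.5, and 33.4, 36.8 and 30.9 CPM at E14.5. No library of one stage lay within the range of another, and E12.5 was highest. Cbx8 rose by 0.56 (SE 0.08, adjusted p = 7.96e-05) and then fell by 0.34 (SE 0.08, adjusted p = 0.0028). Its net change was 0.22 (adjusted p = 0.024). This was not called when libraries were scaled by total counts alone (adjusted p = 0.109) or with no filter (0.0641). Nor was it called without any one of E10.5 replicates 1 and 2 and E14.5 replicate 2 (adjusted p = 0.0734, 0.0629 and 0.0861). Cbx2 (chr11:119022962-119031270, plus strand, GRCm38) ends 5034 bases from Cbx8 (chr11:119036305-119040969, minus strand). Of these neighbouring genes one thus fell at both steps and the other rose and then fell.

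**Figure D2:**
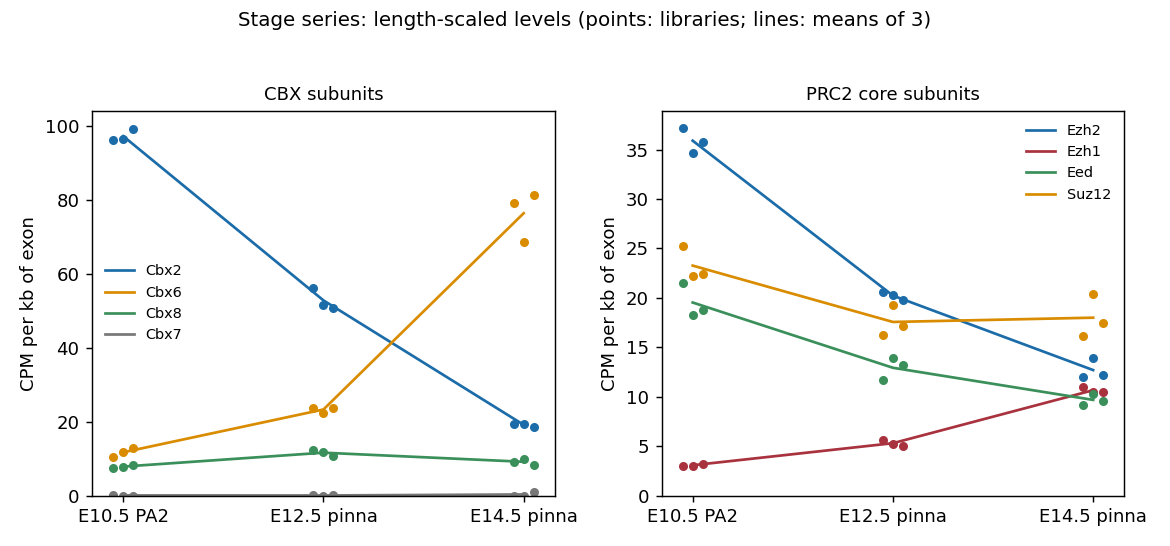
CPM per kb of exon (y axis) by stage for Cbx2, Cbx6, Cbx7 and Cbx8 (left) and the PRC2 core genes (right); points are libraries and lines join the means of 3. Cbx2 falls from 97.3 to 19.2 while Cbx6 climbs to 76.4, and Ezh2 and Ezh1 come close at E14.5.

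Cbx6, a CBX gene outside the 9, took the highest place at E14.5. It was at 61.2, 69.6 and 74.5 CPM at E10.5, 139, 131 and 138 CPM at E12.5, and 461, 401 and 475 CPM at E14.5, a 6.52-fold rise. Npcd lies on the same strand and shares 563 exon bases with it, so the split of reads between them is uncertain. Npcd was listed at 10.4 to 12.2, 21.2 to 23.4 and 51.6 to 73.3 CPM in the same order of stages.

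Cbx7 was barely detected and did not pass the filter on low counts in the stage series. It had 25, 7 and 6 reads at E10.5, 15, 8 and 9 at E12.5, and 0, 0 and 289 at E14.5. A single E14.5 library, replicate 3, therefore held nearly all of them, at 6.33 CPM. With no filter, no stage comparison was called (adjusted p = 0.96, 0.14 and 0.14). Apobec3, which overlaps Cbx7 on the opposite strand by 100 exon bases, also had its highest stage count, 37 reads, in that library. The part of Apobec3 reads in the Cbx7 count was not tested.

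The demethylases moved apart at the last step. Kdm6b was at 49.5, 61.6 and 67 CPM at E10.5, 79.2, 61.4 and 75.9 CPM at E12.5, and 51.1, 54.3 and 56.6 CPM at E14.5. The E14.5 libraries lay below every E12.5 library, while E10.5 overlapped both. Kdm6b had a first change of 0.28 (SE 0.12, adjusted p = 0.051), short of the threshold in the main edgeR fit. This change was called by DESeq2 (adjusted p = 0.0414). With edgeR it was called with total counts alone (0.026), 1 CPM in every library (0.0302) or the replicate number as a block (0.0496). It was also called without E10.5 replicate 3 (0.0206) or E12.5 replicate 2 (0.0106). Kdm6b then fell by 0.42 (SE 0.12, adjusted p = 0.0082). From E10.5 to E14.5 Kdm6b differed by -0.14 (adjusted p = 0.29, but 0.0442 without E10.5 replicate 1). Kdm6a, the X-linked demethylase, was at 131, 128 and 115 CPM at E10.5 and 116, 138 and 141 CPM at E12.5, which overlapped, and at 191, 223 and 203 CPM at E14.5, above all others. It rose by 0.65 in that step (adjusted p = 6.79e-05). The Kdm6b to Kdm6a ratio per kb was 0.457 to 0.703 at E10.5, 0.537 to 0.828 at E12.5 and 0.296 to 0.338 at E14.5, where it did not overlap the others. The exact p for E14.5 against E12.5 was 0.1 (0.154 adjusted). Uty, the Y-linked relative of Kdm6a, rose by 1.21 from E10.5 to E12.5, as the sum of 3 further Y-linked genes went from 103 to 131 CPM at E10.5 to 179 to 226 CPM at E12.5 and 133 to 209 CPM at E14.5. The part of the sex makeup of the pools was not tested.

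Of the 8 genes tested, 3 rose and 4 fell from E10.5 to E12.5, 1 rose and 6 fell from E12.5 to E14.5, and 3 rose and 4 fell over the whole interval. These counts stand against a transcriptome in which 68.8%, 65.7% and 82% of tested genes were called in the same comparisons, so a call does not by itself set these genes apart. A log2 change of at least 1 in size as well was reached by 0, 2 and 4 of the 8, against 21.6%, 19.7% and 39.3% of all tested genes. Of all tested genes, 35% were called higher and 33.7% lower in the first step, 32.6% and 33.1% in the second, and 42% and 40% over the whole interval. The median log2 change of the 8 genes was -0.06, -0.38 and -0.25, against 0.01, -0.01 and 0.02 over all tested genes.

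Among the other 47 tested genes of a Polycomb, H3K27 and COMPASS pathway list, 15 rose and 13 fell from E10.5 to E12.5, 17 rose and 17 fell from E12.5 to E14.5, and 20 rose and 18 fell over the whole interval, with median log2 changes of 0.07, -0.11 and 0.03. The PRC2 core and its histone chaperones, with Ezh1, Ezh2, Eed and Suz12 counted again, went mostly down over the whole interval. Of these 6 genes, 5 were lower and the sixth was Ezh1, while in the second step 3 were lower and 1 higher. Class counts here and in the next paragraph are for the whole interval unless a step is named. Over it 42% of all tested genes were called higher and 40% lower. The chaperone Rbbp4 fell by 1.39, of which 0.80 came after E12.5. The PRC2 accessory genes, Jarid2 included, were split, with 5 of 8 higher and 2 lower. Of these, Epop, which joins one class of PRC2 complexes, fell by 3.18, from 30.1, 32.3 and 34.6 CPM to 3.24, 4.44 and 3 CPM. The Polycomb-like genes Phf1 and Phf19, whose proteins help PRC2 bind DNA, rose by 2.54 and 2.78. Phf1 was at 9.03, 10.3 and 13 CPM, then 40, 34.7 and 34 CPM, then 60.6, 58 and 69.2 CPM, with no overlap. Phf19 stayed at 2.61 to 4.96 CPM through E12.5 and was at 20 to 24.8 CPM at E14.5, so its rise came in the second step.

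In the PCGF, PHC and SCM, and variant classes of PRC1 genes, both directions were found. Of the PCGF genes, which set the class of PRC1, 2 of 6 were higher and 4 lower at E14.5 than at E10.5. Pcgf5 rose by 2.05 to E12.5 and fell by 1.23 after it. Of the PHC and SCM genes, whose proteins link PRC1 complexes to one another, 3 of 5 were higher and 1 lower. Phc3 rose by 1.03 in the first step, while Phc1 fell by 0.82 and Scml2 rose by 0.93 in the second. In the variant PRC1 class, 2 of 9 were higher and 5 lower; L3mbtl2 fell by 1.25. Of their subunits RYBP and YAF2, which take the place of a CBX protein, Yaf2 fell by 0.99 in the first step and Rybp rose by 0.87 in the second. The COMPASS genes, which methylate H3K4, had 3 of 7 higher and 2 lower, with Paxip1, a cofactor of H3K4 methyltransferases, down by 0.69 in the first step, and neither of the 2 H3K27 acetyltransferase genes was called over the whole interval, though 1 was higher in the first step and 1 lower in the second.

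The genes whose profiles over the 9 stage libraries were most like those of the main movers were Rrm2 and Nsd2 for Ezh2 (Pearson r = 0.9981 and 0.998 on log2 CPM), Cnnm1 and Leng9 for Ezh1 (0.9993 and 0.9985), and Ldhb and Spry3 for Cbx2 (0.9999 and 0.9995). Jarid2 and Cbx8 were each other's closest match (0.9912). With 3 stage groups, these values mostly describe the order and spacing of 3 means.

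Other measures moved with stage. All 12 genes of a proliferation list fell in each comparison, and their sum was 6370 to 6880 CPM at E10.5, 3410 to 3550 CPM at E12.5 and 1650 to 2060 CPM at E14.5. The ratio of Ezh2 to these genes was higher at E12.5 than at E10.5 by 0.18 and higher again at E14.5 by 0.29 on the log2 scale, without overlap between stages (exact p = 0.1 and 0.1, 0.154 adjusted). Ezh2 RNA thus declined less than the list as a whole, whose genes had log2 changes of -2.60 to -1.36 from E10.5 to E14.5, a range that holds the -1.50 of Ezh2. The summed level of immediate-early and stress genes was 249 to 301, 580 to 906 and 1810 to 2070 CPM. Crest mesenchyme markers summed to 1510 to 1740, 3250 to 3530 and 3560 to 3960 CPM. Of these 5 genes, 3 rose and 1 fell in the first step, and 3 rose and 2 fell in the second. Schwann cell and melanocyte markers summed to 14.7 to 17.1, 28.5 to 34.4 and 212 to 258 CPM. Neuron markers summed to 33.5 to 39.6 CPM at E10.5 and 2.17 to 2.64 CPM at E14.5. Endothelial markers summed to 6.52 to 8.82, 18.7 to 25.7 and 108 to 172 CPM, but only 1 of their 4 genes was called in each comparison. Cartilage markers summed to 1140 to 1210, 591 to 623 and 230 to 278 CPM, and over the whole interval 2 of their 3 genes were lower and 1 higher. The part of these in the stage differences was not tested. In bulk samples fewer cells of a type and less RNA per cell cannot be told apart.

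**Figure D3:**
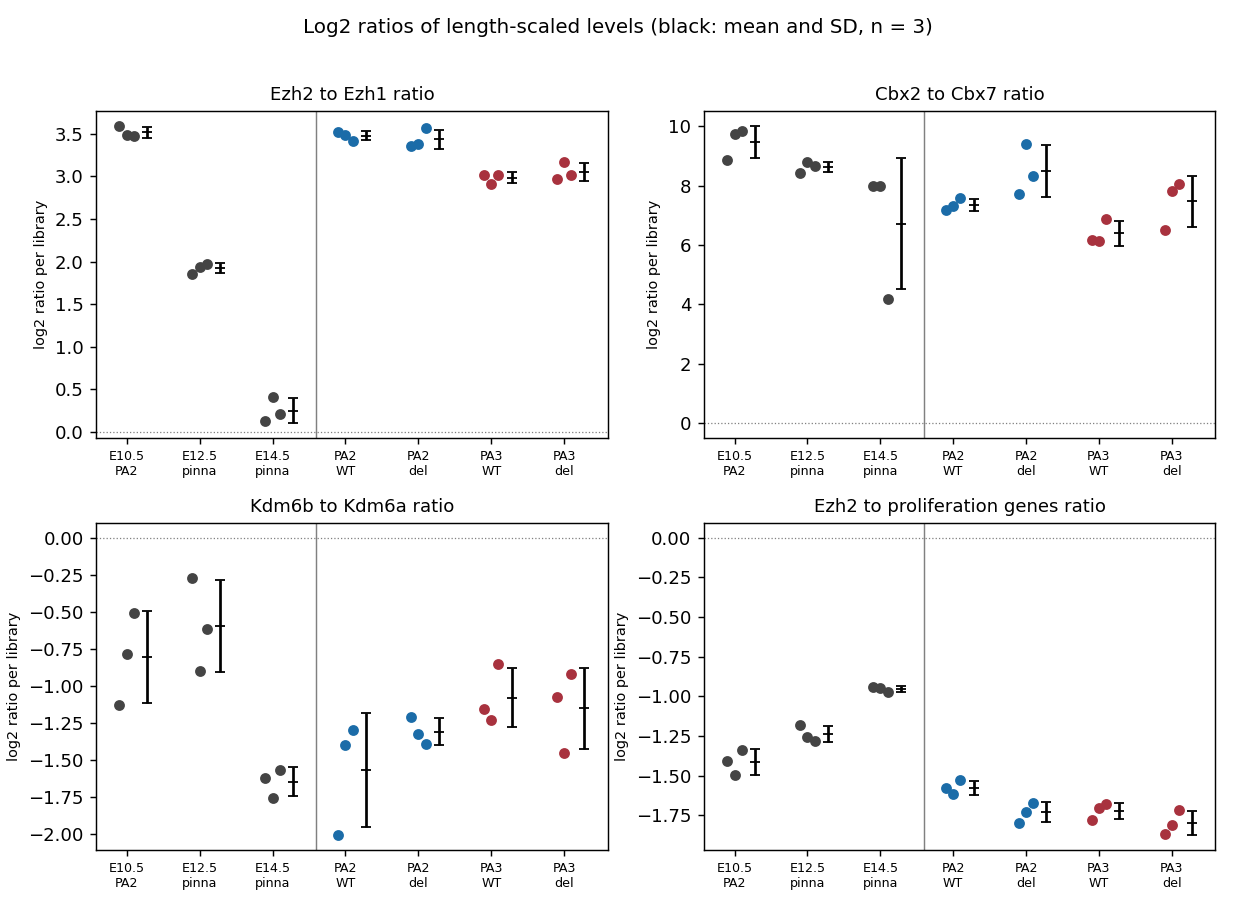
Log2 ratio of length-scaled levels in each library (y axis) for 4 pairs of genes or gene sets over the 7 groups; points are libraries, black marks are mean and SD (n = 3), del is HIRE1del, and a vertical line parts the separately counted series. The Ezh2 to Ezh1 ratio drops from 3.52 to 0.25 across stages, whereas the deleted and WT arches overlap in it.

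In the genotype series, the deletion was checked through Hoxa2, the gene named as its target. Hoxa2 was at 73.4 to 84.2 CPM in PA2 WT and 4.75 to 7.1 CPM in PA2 HIRE1del, and at 56 to 65.1 CPM in PA3 WT and 22.1 to 25.6 CPM in PA3 HIRE1del. The groups did not overlap, in the direction of the labels.

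No Polycomb or demethylase gene of the 9 was called in the HIRE1del arches. The edgeR test called 0 of 9 in PA2, where 0.438% of all tested genes were called, 0 of 9 in PA3, where 0.216% were, and 0 of 9 for the difference of the effects between arches, where 0.0487% were. DESeq2 and limma-voom also called 0 in each. At an unadjusted p under 0.05 there were 1, 2 and 1 of the 9, against 8.57%, 9.73% and 5.52% of all genes. Of the 56 tested genes of the pathway list, each of the 3 tools called 0 in all 3 comparisons.

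The levels of the PRC2 genes in PA2 were close between genotypes. Ezh2 was at 233, 218 and 230 CPM in PA2 WT and 197, 216 and 216 CPM in PA2 HIRE1del, a log2 difference of -0.12 (unadjusted p = 0.045). The groups did not overlap, but the margin was small. In PA3 it was at 178, 193 and 190 CPM in WT and 177, 185 and 190 CPM in HIRE1del, which overlapped. Eed was at 64.8, 62.8 and 67.7 CPM in PA3 WT and 69.3, 74.4 and 72.2 CPM in PA3 HIRE1del, higher without overlap by 0.14 (unadjusted p = 0.01). In PA2 its levels were 86, 80.9 and 81.9 CPM in WT and 79.6, 79.1 and 80.8 CPM in HIRE1del, and the difference of its effects between arches was -0.20 (unadjusted p = 0.011). Ezh1, Suz12, Jarid2, Cbx2 and Cbx8 overlapped between genotypes in both arches. How often other tested genes did not overlap was not counted.

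Kdm6b was at 48.5, 39.7 and 45 CPM in PA3 WT and 35.2, 31 and 43.3 CPM in PA3 HIRE1del, a difference of -0.28 with overlapping groups (unadjusted p = 0.027). In PA2 it was at 30.6, 37 and 35 CPM in WT and 35.4, 32.8 and 33.4 CPM in HIRE1del. For the 8 genes other than Cbx7, the log2 differences lay between -0.12 and 0.06 in PA2, with 95% bounds from -0.27 to 0.23, and between -0.28 and 0.14 in PA3, with bounds from -0.53 to 0.25. A change of 1 log2 unit, the size Ezh1 reached between E12.5 and E14.5, lay outside these intervals.

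Outside the 9, Kdm6a was at 105 to 150 CPM in PA2 WT and 99.6, 100 and 107 CPM in PA2 HIRE1del, a difference of -0.29 (unadjusted p = 0.032, adjusted p = 0.52). WT replicate 1 had the highest Kdm6a and the lowest Uty of its group in both arches, with Uty at 0.0387 CPM in PA2 and 1.45 CPM in PA3, against 25.3 to 57.5 CPM in the other WT libraries and 35.9 to 48.9 CPM in all deleted ones. The part of the pools' sex makeup in this difference was not tested. Cbx6 differed by 0.05 in PA2 and by -0.09 in PA3 (adjusted p = 0.92 and 0.77).

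Cbx7 was the exception in width. It had 63, 69 and 60 reads in PA2 WT and 46, 4 and 26 in PA2 HIRE1del, and 109, 127 and 81 reads in PA3 WT and 88, 28 and 24 in PA3 HIRE1del. The PA2 groups did not overlap and the PA3 groups did. Its log2 difference was -1.22 in PA2 (95% interval -2.50 to 0.06, edgeR unadjusted p = 0.06, adjusted p = 0.62). In PA3 the difference was -1.15 (-2.33 to 0.02, unadjusted p = 0.054, adjusted p = 0.52). Both intervals were wide and held 0, and whether a change of this size could be detected was not tested. Apobec3, which overlaps it, had 57, 56 and 52 reads in PA2 WT and 31, 18 and 31 in PA2 HIRE1del, and 82, 110 and 68 in PA3 WT and 71, 39 and 50 in PA3 HIRE1del. The counts of the overlapping pair were thus lowest in deleted libraries in both arches, and the part of one in the other was not tested.

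**Figure D4:**
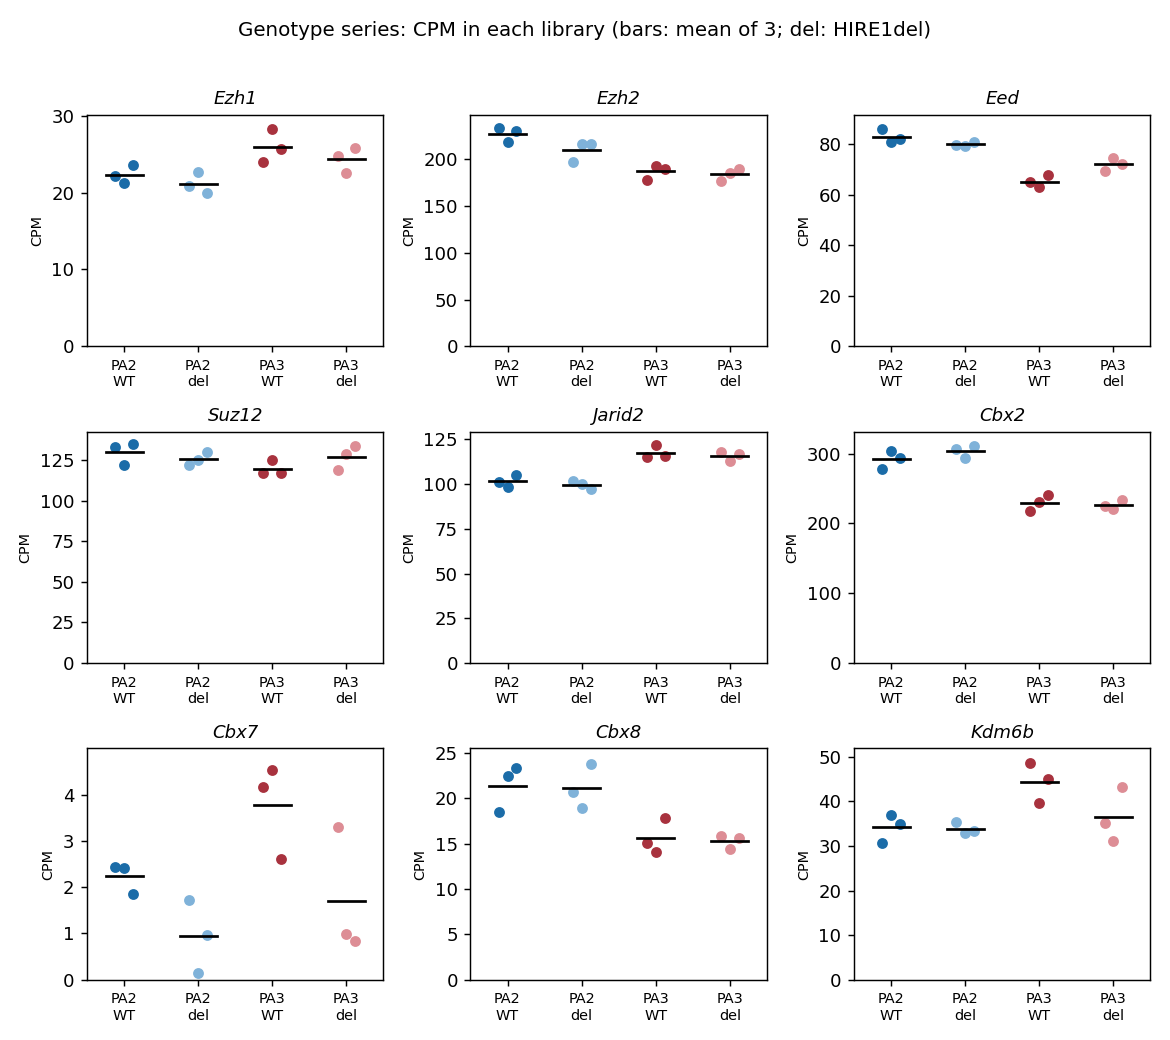
CPM (y axis) of each gene in every library of the genotype series; points are libraries, coloured by group, black bars are means of 3, and del is HIRE1del. WT and deleted libraries lie close for most genes, Cbx7 is low throughout and scattered in the deleted arches, and PA3 is below PA2 for Ezh2, Eed, Cbx2 and Cbx8.

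Between the WT arches, by contrast, several of the genes were called. In all, 4 of the 9 genes were lower and 2 higher in PA3 than in PA2, where 36.5% of all tested genes were called, 19.1% higher and 17.4% lower. None of them reached a log2 difference of 1 in size, which 8.34% of tested genes did. Ezh2 was lower by 0.28 (SE 0.05, adjusted p = 0.0011), with the PA3 libraries given above all below those of PA2. Eed was lower by 0.35 (SE 0.05, adjusted p = 1.17e-04), also without overlap. Cbx2 was at 278, 303 and 294 CPM in PA2 WT and 218, 230 and 240 CPM in PA3 WT, lower by 0.35 (SE 0.05, adjusted p = 1.59e-04). Cbx8 was at 18.5, 22.4 and 23.3 CPM in PA2 and 15.1, 14.1 and 17.8 CPM in PA3, lower by 0.45 (SE 0.12, adjusted p = 0.0086). In each of these 4 the arches did not overlap, but the share of all tested genes without overlap was not counted.

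Jarid2 and Kdm6b were the genes higher in PA3. Jarid2 was at 101, 98.7 and 105 CPM in PA2 WT and 115, 122 and 116 CPM in PA3 WT, higher by 0.21 (SE 0.05, adjusted p = 0.0026). Kdm6b was higher by 0.38 (SE 0.11, adjusted p = 0.02), and this call was lost without PA2 WT replicate 1 (adjusted p = 0.08), PA3 WT replicate 1 (0.076) or PA3 WT replicate 3 (0.053). The 3 genes not called were Ezh1 (log2 difference 0.22, adjusted p = 0.058, but 0.036 without PA3 WT replicate 1 and 0.0387 with a filter of 1 CPM in every library), Suz12 (-0.12, adjusted p = 0.12, but 0.0482 without PA2 WT replicate 2) and Cbx7 (0.75, adjusted p = 0.29, but 0.0359 when the 6 libraries were fitted alone). Among the other 47 tested pathway genes, 10 were lower and 3 higher in PA3. The lower ones included Bmi1, a PCGF subunit, by 0.49, Mtf2, a Polycomb-like protein, by 0.36, and Rnf2, the catalytic RING ligase of PRC1, by 0.32. Lcorl, Pcgf6, Rybp, Kdm2b, Rbbp4, Pcgf3 and Bap1 were lower by 0.40 to 0.12. The call of Rybp was lost without PA2 WT replicate 3 or PA3 WT replicate 3 (adjusted p = 0.0864 and 0.0523), that of Pcgf6 without PA2 WT replicate 1 or PA3 WT replicate 3 (0.081 and 0.0552), and that of Pcgf3 without PA2 WT replicate 1 or 3 or PA3 WT replicate 2 (0.0622, 0.0522 and 0.0953). The call of Bap1 was lost without any 1 of the 6 libraries but PA3 WT replicate 3 (0.0795 to 0.194) and also with total counts (0.0656), no filter (0.0551), 1 CPM in every library (0.12) or the 6 libraries fitted alone (0.0913). The higher ones were Kmt2d, an H3K4 methyltransferase, with 0.67, Pcgf5 with 0.77 and Phf19 with 1.04. With same-numbered arches taken as 1 embryo pool, 22 of the 56 tested genes of the whole pathway list were called, in place of 19. The call of Bap1 was lost (adjusted p = 0.052), and the calls gained included that of Phf1 (0.36, adjusted p = 0.046).

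Markers of other cell types also differed between the arches. Erythroid markers summed to 1490 to 2350 CPM in PA2 WT and 12100 to 23700 CPM in PA3 WT, and all 5 were higher in PA3. Epithelial markers summed to 179 to 202 and 405 to 523 CPM, with 4 of 5 higher and 1 lower in PA3. Neuron markers summed to 65.9 to 73.9 and 133 to 176 CPM, with all 4 higher. Crest mesenchyme markers summed to 943 to 1050 and 623 to 787 CPM, with 3 of 5 lower and 1 higher. The proliferation genes summed to 6380 to 6530 and 5710 to 6030 CPM, with 5 of 12 lower in PA3. Endothelial markers summed to 219 to 229 and 251 to 270 CPM, with 3 of 4 higher. Immediate-early and stress genes summed to 248 to 265 and 139 to 178 CPM, with 6 of 8 tested lower. The part of these in the arch differences was not tested.

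**Figure D5:**
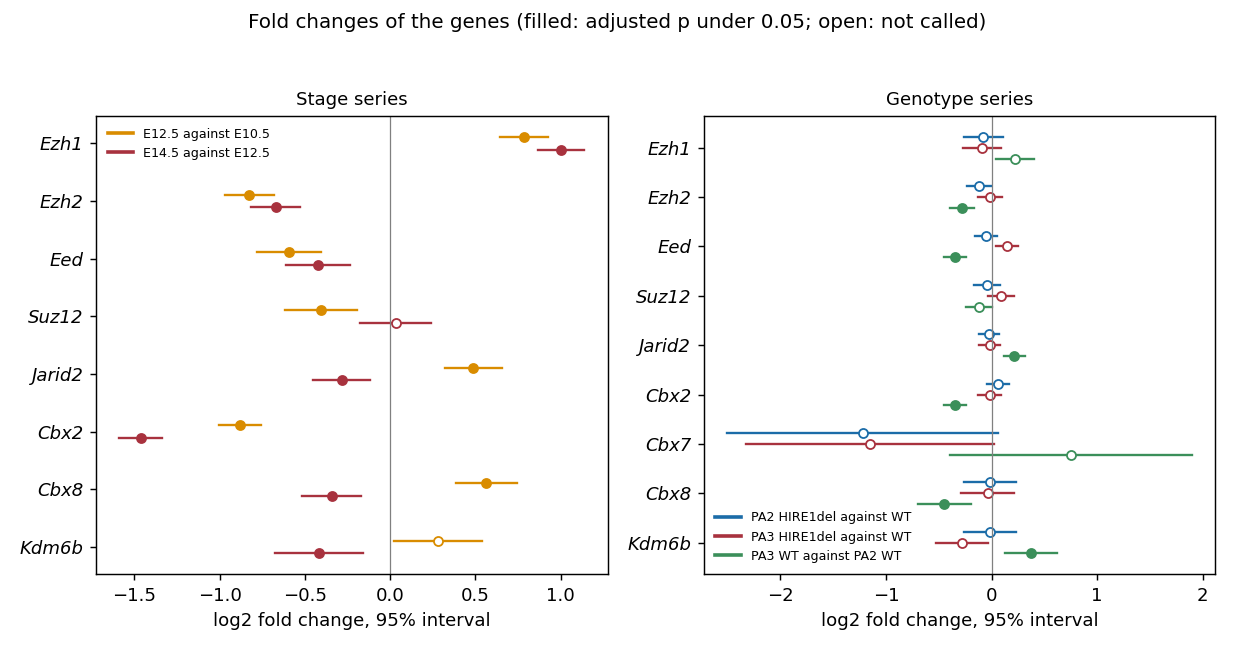
Log2 fold change with its 95% interval (x axis) for each gene in the stage series (left) and the genotype series (right); colours are comparisons, filled points were called at an adjusted p under 0.05 and open points were not. The stage changes reach -1.46 for Cbx2 and 1.00 for Ezh1, while the HIRE1del points are all open.

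Levels in the WT PA2 of both series can be set side by side, though they were counted separately and differ in described sorting and in read type. They also differ in cell type markers. Erythroid markers summed to 1.77 to 7.31 CPM in sorted E10.5 crest and 1490 to 2350 CPM in PA2 WT. Epithelial markers summed to 9.07 to 11.2 and 179 to 202 CPM, and endothelial ones to 6.52 to 8.82 and 219 to 229 CPM. Crest mesenchyme markers went the other way, with 1510 to 1740 and 943 to 1050 CPM. The part of these in the levels was not tested. Per kb of exon, the order from the highest was Cbx2, Ezh2, Suz12, Eed and Jarid2 in both E10.5 PA2 groups. The Ezh2 to Ezh1 ratio was 11.4 in sorted PA2 crest and 11.1 in PA2 WT, and 7.89 in PA3 WT. In PA2 HIRE1del it was 10.8 and in PA3 HIRE1del 8.28, and the deleted and WT libraries overlapped in both arches (exact p = 0.7 and 0.6). The Kdm6b to Kdm6a ratio also overlapped in both. In PA2 HIRE1del the log2 ratio of Ezh2 to the proliferation genes was lower by 0.16, and that of Cbx2 to Cbx7 higher by 1.14. In these 2 ratios the genotypes did not overlap in PA2 (exact p = 0.1 for each, 0.154 adjusted) but overlapped in PA3.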

How the data were processed

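The authors aligned the reads to GRCm38 (mm10) and deposited raw read counts per UCSC known gene, 1 table per series. The methods name an unstranded kit but counting on the opposite strand, so reads of overlapping antisense genes cannot be told apart. Library totals were 25814151 to 49058941 (stage) and 25804446 to 32210131 (genotype), and the labels name no separate animals, so p-values measure the spread between pooled libraries. Each table was tested separately with edgeR 4.0.16 (TMM factors, at least 1 CPM in at least 2 libraries, quasi-likelihood test, 1 mean per group, Benjamini-Hochberg adjustment over 13438 and 14383 tested genes; called at an adjusted p under 0.05). CPM used TMM-scaled library sizes. Ratios used CPM with a pseudocount of 0.5, divided by the deposited exon width, and exact two-sided permutation tests. Scripts were tested on simulated data. DESeq2 1.42.0 and limma 3.58.1 (voom) were alternatives.

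Members and lists were chosen with earlier results of these data known. Outside the 9 genes, the text names Kdm6a, Cbx6 and genes drawn from the strongest calls of the pathway list, and Apobec3 and Npcd for their overlap; 1 further gene is not reported here. Deviations of same-numbered PA2 and PA3 libraries from their group means correlated (r = 0.216 to 0.355 in WT, 0.167 to 0.317 in HIRE1del), so arches were also compared with the embryo pool as a block, where the same number of the 9 genes, 6, was called.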

Additional observations from a re-analysis of the deposited data

How the results depend on the processing

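Counts of the 9 genes called stayed within 1.5 times of the reported value under 74 of 78 other settings and under all 48 settings that left out 1 library. The 4 exceptions required a log2 change of at least 1 in size, where 0, 2 and 4 genes were called in the stage comparisons (E12.5 against E10.5, E14.5 against E12.5, E14.5 against E10.5) and 0 between the WT arches; the rule itself is stricter. With the replicate number as a block, the counts were 8, 7, 7, 0, 0, 0 and 6 in the 7 comparisons. Deviations of same-numbered stage libraries from their group means had correlations of both signs (r = -0.298 to 0.166). So did those of WT and HIRE1del libraries of 1 arch (-0.126 to 0.191) and of different arches (-0.186 to 0.232). The main fit used no pairing, and whether same-numbered libraries share a batch was not tested. Scaling by total counts alone moved the median of all genes by -0.12 in E14.5 against E12.5. Under it Suz12 had -0.0882 in that comparison, and group means moved past 1 SD for Ezh1 at E14.5 (75.8 CPM), Ezh2 at E12.5 (141 CPM) and Cbx2 at E14.5 (78.1 CPM), 3 of 63 levels. The difference of the HIRE1del effect between arches for Jarid2 was 0.0061 with total counts, 0.0017 with no filter and 0.0105 with 1 CPM in every library. The cause of these was not tested.

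Leaving out 1 library turned the sign only of values that were not called. Log2 differences then ranged from -0.0623 to 0.1096 for Suz12 in E14.5 against E12.5. In PA2 HIRE1del against WT they ranged from -0.0435 to 0.0022 for Jarid2, -0.1144 to 0.0552 for Cbx8, -0.0883 to 0.0438 for Kdm6b and -0.024 to 0.1022 for Cbx6. In PA3 HIRE1del against WT they ranged from -0.0543 to 0.0062 for Ezh2, -0.0372 to 0.0074 for Jarid2, -0.0526 to 0.0127 for Cbx2, -0.1075 to 0.0602 for Cbx8 and -0.1867 to 0.0801 for the Kdm6b to Kdm6a ratio. For the difference between arches of the HIRE1del effect they ranged from -0.0503 to 0.0677 for Ezh1, -0.0309 to 0.0223 for Jarid2, -0.8192 to 0.8366 for Cbx7, -0.0763 to 0.0933 for Cbx8 and -0.1737 to 0.0932 for Kdm6a. Between the WT arches they ranged from -0.2355 to 0.0314 for Kdm6a and -0.0467 to 0.0664 for Cbx6.

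Groups of 3 cannot reach an exact p below 0.1. The deletion intervals of Cbx7, whose reads were few and scattered, held 0. Without E14.5 replicate 3 the log2 Cbx2 to Cbx7 ratio differed between E14.5 and E12.5 by -0.65 in place of -1.92.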

Other observations

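Some pathway genes were uneven among libraries of one group, and these were chosen after their values were seen. Phc2, a PRC1 subunit, was at 1.27, 10.1 and 14.3 CPM in the E10.5 crest libraries, and at 12, 54.6 and 31.7 CPM in PA2 HIRE1del. Auts2, a partner of variant PRC1, was at 3.04, 0.0327 and 2.55 CPM in the E12.5 pinna and at most 0.103 CPM in the sorted E10.5 crest, against 5.54 to 8 CPM in PA2 WT of the genotype series. Cdkn2b, a cell cycle inhibitor that Polycomb is known to repress, is outside the pathway list and differed between groups. It is 1 of 9 loci listed as known Polycomb targets, and no other of them passed the filter on low counts. The other 8 had 3 or fewer reads in every library of the stage series and of PA2 WT. In PA3 WT, PA2 HIRE1del and PA3 HIRE1del, 4, 7 and 2 of the 9 did. Cdkn2b was at 1.14, 1.75 and 2.09 CPM in E10.5 crest and 0, 0.0653 and 0 CPM in the E12.5 pinna. In the genotype series Cdkn2b was at 0.542, 0.666 and 0.647 CPM in PA2 WT and 5.55, 4.36 and 3.54 CPM in PA3 WT, which did not overlap. It was at 0.0376 to 0.407 CPM in PA2 HIRE1del and 2.45 to 3.44 CPM in PA3 HIRE1del. The log2 differences from WT were -1.79 and -0.58, neither called by edgeR (adjusted p = 0.3 and 0.58).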
